A study of Mus musculus with 6 samples.

Results

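Myc, Mycn, Mycl, Max, Mxd1, Mxd3, Mxd4, Mxi1, Mnt and Mga encode the MYC proteins, their partner MAX and the repressor-type proteins that also pair with MAX. Each of the 10 genes was taken as measured by a probe set whose only annotated symbol is that gene, and all 10 were found among the 19937 genes of the array table, each with 1 probe set. The samples were plasmacytoid dendritic cells (pDCs), the dendritic cell type known for type I interferon secretion, taken from mouse spleen. There were 3 samples from IRF8-deficient mice, labelled KO, and 3 from wild-type mice, labelled WT, and all 6 were collected as cells positive for B220 and SiglecH. IRF8 is a transcription factor of dendritic cell and monocyte development. Amplified RNA was hybridised to Affymetrix arrays, and the deposited values are log2 expression levels, so 1 unit is a doubling. Strain, age, sex, the kind of Irf8 allele and whether a sample came from 1 animal or a pool are not stated in the labels. The spread between samples may therefore be technical.

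MYC proteins bind DNA as dimers with MAX at E-box sequences and are known for driving ribosome production, metabolism and cell division. MXD proteins, MNT and MGA compete for MAX and the same sequences, and MXD proteins and MNT recruit SIN3 and histone deacetylases to repress transcription. Mycl is known as the paralog expressed in dendritic cells from their committed progenitors on, where Myc is low. The series title poses repression of MYC by IRF8 as a question of the study.

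Of the 10 genes, Myc was higher and Mycl lower in KO at a limma adjusted p of 0.05 or less, 1 in each direction, and 8 passed in neither. Over all genes 4.38% passed, 2.3% as higher and 2.08% as lower. The median difference of the 10, KO minus WT, was -0.08, beside -0.04 over all genes. The KO and WT values of 2 members did not overlap, which was the case for 20.4% of all genes.

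Some facts of the whole array set touch these results. Array medians ran from 5.53 to 5.56. Irf8 signal was not reduced in the KO samples, at 10.15, 10.49 and 10.79 against 10.21, 9.97 and 10.24 in WT (limma adjusted p = 0.425). The altered part of the gene is not given, so its probe set does not check the labels, and directions rest on them. Of 11 measured pDC markers, 0 were higher and 2 lower, Ccr9 and Pacsin1, beside 2.3% and 2.08% of all genes. The mean level of the 11 was 10.76 to 10.95 in KO arrays and 11.07 to 11.23 in WT arrays. Of these markers 7 had a negative and 4 a positive difference (median -0.35). At an unadjusted limma p under 0.05, 6 were lower and 1 higher, beside 8.49% and 7.58% of all genes. The unequal-variance test called 0 of them. With KO replicate 1 left out, 1 marker passed the adjusted threshold as higher, Irf7 (0.66, limma adjusted p = 0.0353). In that fit 3 passed as lower, Bst2 (-0.75, adjusted p = 0.0218) besides Ccr9 and Pacsin1, beside 7.52% of all genes in either direction. KO replicate 1 stood apart through neutrophil granule and cell cycle genes, and where leaving it out changes the calls of a list described here, the counts without it are given beside that list.

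Myc, the founding member of the family and a driver of growth and proliferation, rose in KO. Its probe set, 10424400, measured 9.69, 8.37 and 8.61 in the 3 KO samples, against 5.90, 5.92 and 6.20 in the 3 WT samples. Every KO value lay above every WT value, and KO replicate 1 was the highest of the 6. The level averaged 8.89 ± 0.70 in KO and 6.01 ± 0.17 in WT (SD, n = 3 each). The log2 difference was 2.88 (SE 0.32, 95% interval 2.14 to 3.63, limma adjusted p = 0.00289), or 7.39-fold. Only 55 of the 19937 genes had a larger difference in either direction. The KO samples spread over 1.32 log2 units and the WT samples over 0.30. An exact two-sided permutation test gave p = 0.10, which is as low as 6 arrays can reach, and Myc missed the threshold in a test per gene with unequal variances (adjusted p = 0.342). In bulk samples, more Myc RNA per cell and more cells that hold it cannot be told apart.

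Mycl, the paralog tied to mature dendritic cells, fell in KO by a much smaller amount. Its probe set, 10507798, measured 7.01, 6.73 and 6.91 in KO samples, against 7.46, 7.63 and 7.36 in WT samples. The groups did not overlap, and both were tight, with ranges of 0.28 in KO and 0.27 in WT. The means were 6.88 ± 0.14 in KO and 7.48 ± 0.14 in WT (SD, n = 3 each). The log2 difference was -0.60 (SE 0.13, 95% interval -0.89 to -0.30, limma adjusted p = 0.0426), or 1.51-fold lower. This call lay close to the threshold and was lost without any of KO replicates 2 and 3 or WT replicates 1, 2 and 3, with adjusted p up to 0.168, while without KO replicate 1 it was 0.0313.

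Mycn, the paralog best known from neural and embryonic tissues, did not pass the test. It measured 5.29, 4.92 and 5.17 in KO samples and 5.09, 4.71 and 4.76 in WT samples. KO replicates 1 and 3 lay above all WT values and KO replicate 2 lay within them. The log2 difference was 0.27 (95% interval -0.09 to 0.63, limma adjusted p = 0.468). Of the 10 probe sets, that of Mycn was the only one whose mean signal lay below the median of all genes, 5.69, and 0 of the 10 lay below the 25th percentile, 4.58. No detection calls were used, so a dim signal is not called absent.

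**Figure D1:**
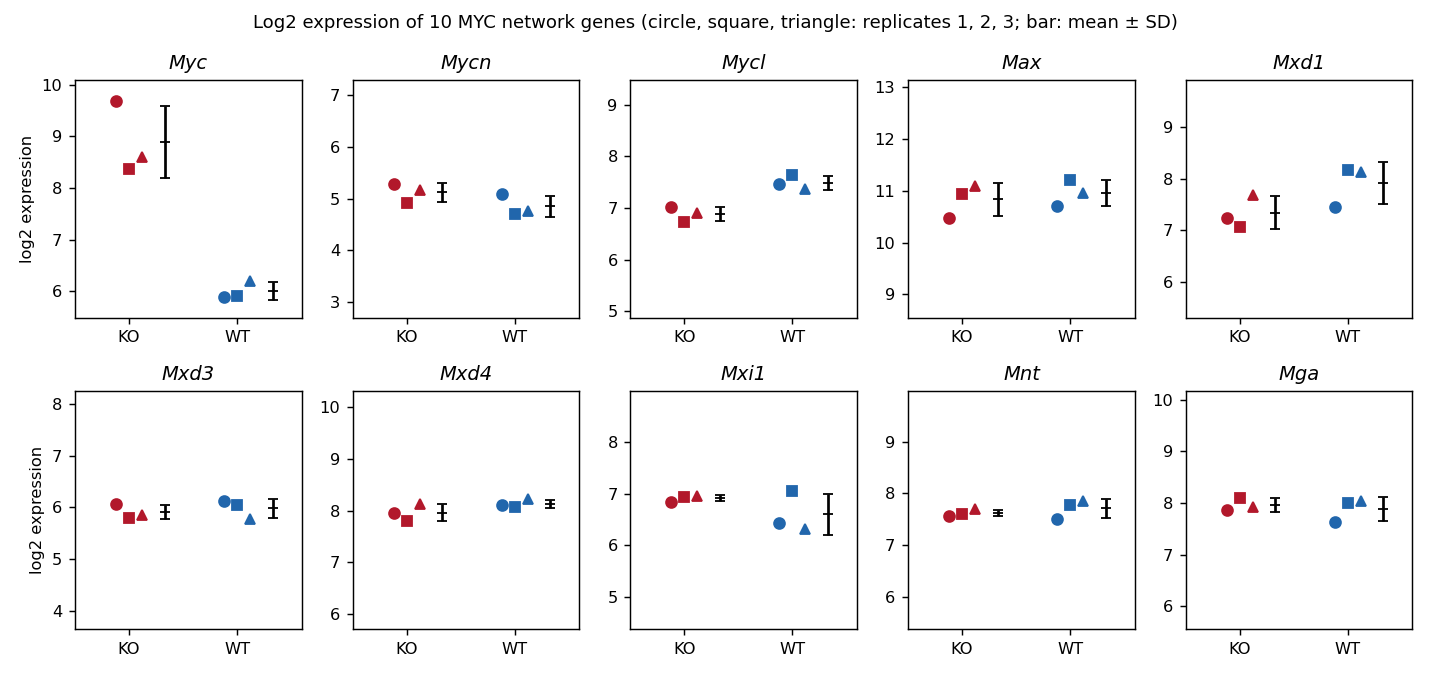
Log2 expression (y axis) of the 10 genes in KO samples (red, left) and WT samples (blue, right) of each panel, with circles, squares and triangles for replicates 1, 2 and 3 and black bars for the mean ± SD (n = 3). Each y axis spans the same number of log2 units, and separate KO and WT values are seen for Myc, 8.37 to 9.69 in KO against 5.90 to 6.20 in WT, and for Mycl, 6.73 to 7.01 in KO against 7.36 to 7.63 in WT.

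The balance between the paralogs differed between the genotypes without overlap. Because probe sets respond differently, the log2 signal of Myc minus that of Mycl is read only as a change between samples and not as a ratio of transcripts. It was 2.69, 1.64 and 1.71 in KO samples, against -1.55, -1.71 and -1.15 in WT samples. Every KO value lay above every WT value, and the mean was 3.48 higher in KO, of which Myc contributed 2.88. Leaving out single arrays gave 3.14 to 3.67. The signal of Mycn minus that of Mycl was -1.72, -1.82 and -1.74 in KO samples and -2.36, -2.92 and -2.60 in WT samples, a difference of 0.87. No test was applied to these balances, since they are built from members whose differences are given above.

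Max, the obligate DNA-binding partner of MYC that also pairs with the repressor-type proteins, did not pass the test. It measured 10.48, 10.94 and 11.10 in KO samples and 10.71, 11.22 and 10.96 in WT samples. The groups overlapped, and the log2 difference of -0.12 had a 95% interval of -0.58 to 0.34 (limma adjusted p = 0.848). Its sign turned without KO replicate 1 (0.06) and without WT replicate 2 (0.009). The signal of Myc minus that of Max was -0.79, -2.56 and -2.49 in KO samples and -4.80, -5.31 and -4.75 in WT samples, so it was higher in each KO sample than in any WT sample.

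Among the repressor-type genes, Mxd1 had the largest difference, but it did not pass. MXD1 is a MAX partner that rises as many blood cells differentiate. Mxd1 measured 7.25, 7.06 and 7.69 in KO samples and 7.46, 8.17 and 8.14 in WT samples. KO replicates 1 and 2 lay below all WT values, and KO replicate 3 lay above WT replicate 1. The log2 difference was -0.59, nearly that of Mycl, with a wider SE of 0.24 (95% interval -1.14 to -0.04, unadjusted p = 0.0399, limma adjusted p = 0.274).

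Mxi1, which encodes another SIN3-recruiting MAX partner, lay on the other side of 0. It measured 6.84, 6.94 and 6.95 in KO samples and 6.43, 7.05 and 6.32 in WT samples. The KO values lay within 0.11 of each other, inside the WT range of 0.73, and the log2 difference was 0.31 (95% interval -0.14 to 0.76, limma adjusted p = 0.52). WT replicate 2 was the high WT sample, and without it the difference was 0.53 (adjusted p = 0.0879). The signal of Mxd1 minus that of Mxi1 was 0.42, 0.13 and 0.74 in KO samples, against 1.03, 1.12 and 1.83 in WT samples, so these groups did not overlap although those of each gene did. This pair was chosen after its values were seen.

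The remaining repressor-type genes had smaller differences, none of which passed. Mxd3, the family member known to be expressed in dividing cells, measured 6.07, 5.80 and 5.85 in KO samples and 6.12, 6.05 and 5.78 in WT samples, a log2 difference of -0.08 (limma adjusted p = 0.864). Mxd4, a member linked to quiescent and differentiated cells, measured 7.96, 7.80 and 8.12 in KO samples and 8.10, 8.07 and 8.22 in WT samples, a difference of -0.17 (adjusted p = 0.594). In these genes KO and WT values overlapped, and 2 of the 3 KO values of Mxd4 lay below all WT values. Mnt, a broadly expressed MAX partner that opposes MYC, measured 7.56, 7.61 and 7.69 in KO samples and 7.51, 7.77 and 7.85 in WT samples, a difference of -0.09 (adjusted p = 0.805). Mga, the large MAX partner that also carries a T-box domain, measured 7.86, 8.10 and 7.93 in KO samples and 7.63, 8.01 and 8.04 in WT samples, a difference of 0.07 (adjusted p = 0.887), whose sign turned without WT replicate 1 (-0.06) and without KO replicate 2 (-0.002). The 95% intervals of these genes were -0.39 to 0.24 for Mxd3, -0.45 to 0.11 for Mxd4, -0.38 to 0.20 for Mnt and -0.27 to 0.41 for Mga, which leave room for differences of that size.

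The 6 repressor-type genes, Mxd1, Mxd3, Mxd4, Mxi1, Mnt and Mga, were shifted little as a group. Their median shift from the WT mean was -0.09, -0.14 and -0.02 in KO samples and -0.18, 0.09 and 0.11 in WT samples. In each KO sample 4 of the 6 lay below their WT mean, and in WT replicate 1 it was 5 of 6. Ordered by their differences, the members ran Mycl, Mxd1, Mxd4, Max, Mnt, Mxd3, Mga, Mycn, Mxi1 and Myc. The intervals of neighbours in this order overlapped, except that of Myc, whose lower bound of 2.14 lay above the upper bound of 0.76 for Mxi1.

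**Figure D2:**
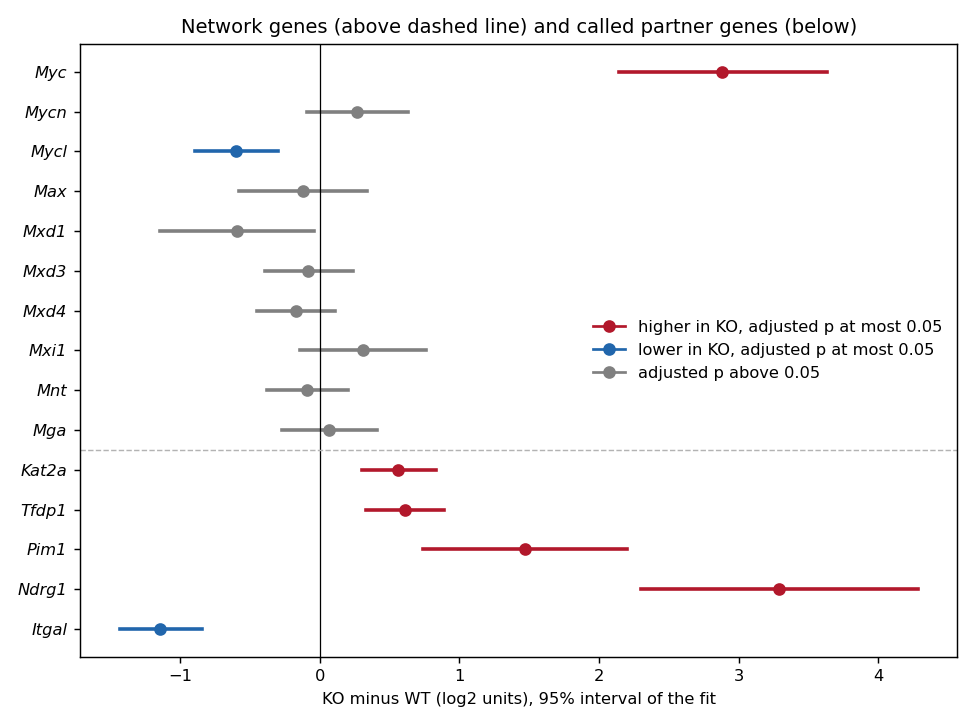
KO minus WT differences in log2 units (x axis) of the 10 network genes, above the dashed line, and of 5 partner and target genes that passed the test, below it. Points are estimates and lines 95% intervals of the fit (3 KO and 3 WT samples), in red where higher and blue where lower in KO at an adjusted p of 0.05 and in grey otherwise. Myc at 2.88 stands far from the other 9 members, which lie between -0.60 and 0.31.

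The E-box CACGTG, the sequence that MYC with MAX and MXD with MAX bind, was searched on both strands of RefSeq promoters (mouse assembly GRCm38.p6, from 250 bases before to 50 after the start), where the table matched 9 members, all but Myc. Over the 11 promoters of these 9 members it was present in 3, those of Max, Mnt and Mxd4, and over all 32851 promoters in 7.15%. These windows are shown because members of the network themselves carry the network's binding sequence, in capitals with 25 bases on each side, read 5′ to 3′ on the gene's strand.
Max, chr12:76962221-76962276, minus strand: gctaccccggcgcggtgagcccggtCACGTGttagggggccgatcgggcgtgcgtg
Mnt, chr11:74830776-74830831, plus strand: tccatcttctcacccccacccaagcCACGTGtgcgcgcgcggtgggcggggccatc
Mxd4, chr5:34187899-34187954, minus strand: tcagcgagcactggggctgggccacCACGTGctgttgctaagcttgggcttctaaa
Counted from the start that set each promoter window, the E-box begins 3 bases before it for Max, 123 for Mnt and 219 for Mxd4. For Max and Mnt this start lies inside the RefSeq span of the gene, so it is not the outermost start. None of these 3 genes passed the test beside the rise of Myc, with log2 differences of -0.12, -0.09 and -0.17. A match is a description of the letters in this window and does not show binding.

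Sequences bound by IRF proteins were searched in the same promoters. The interferon response element core GAAANNGAAA was in 0 of the 9 members' promoters and in 3.44% of all. The ETS and IRF composite GGAANNGAAA is a form that IRF8 is known to bind together with PU.1. It was in 1 of the 11 promoters of the 9 members, a promoter of Mxi1, and in 2.72% of all promoters. The Mxi1 match is in 1 of its 3 listed promoters, 163 bases before that start, and is shown with the motif in capitals.
Mxi1, chr19:53329225-53329284, plus strand: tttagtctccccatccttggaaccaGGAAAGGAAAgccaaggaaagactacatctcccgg
The promoter of Mycl held 0 of the 3 motifs in this window, and matches of different motifs did not overlap in the members' promoters.

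Partner, regulator and target genes of the network were grouped in 8 lists, of whose 119 entries 112 were measured. Of the 112, 4 rose and 1 fell by limma, together 4.46%, close to the 4.38% of all genes. Without KO replicate 1 these counts were 9 and 2, or 9.82%, beside 7.52% of all genes. In the branch of MLX, a MAX-like protein that pairs with the glucose-sensing MONDO factors, 0 of 3 passed in either direction (median -0.04), with Mlx at 7.35 ± 0.06 in KO and 7.22 ± 0.02 in WT (SD, n = 3 each). Of 9 other basic helix-loop-helix zipper factors, among them the E-box binders Usf1 and Usf2, 0 passed and 7 had a negative difference (median -0.08). At an unadjusted p under 0.05 these counts were 0 of the 3 and 1 of the 9, which was Mitf at -0.34, beside 16.1% of all genes (7.58% higher and 8.49% lower), and the unequal-variance test called 0 in each list.

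Of 14 coactivators and cofactors of MYC, 1 rose and 0 fell (median 0.12), beside 2.3% and 2.08% of all genes. At an unadjusted limma p under 0.05, 2 of the 14 were higher and 0 lower, beside 7.58% and 8.49% of all genes. The unequal-variance test called 0 of these 14. Kat2a, which encodes the histone acetyltransferase GCN5 that MYC recruits, measured 7.86, 7.97 and 7.74 in KO samples and 7.39, 7.21 and 7.26 in WT samples. Its groups did not overlap, and the log2 difference was 0.56 (SE 0.11, limma adjusted p = 0.0354). Its scaffold partner Trrap measured 9.27 ± 0.56 in KO and 9.57 ± 0.63 in WT (adjusted p = 0.783). Ccnt1, a cyclin of the elongation kinase P-TEFb, had the largest difference of the list, 0.97, but measured 7.31, 8.52 and 8.62 in KO samples and 7.29, 6.80 and 7.44 in WT samples, so KO replicate 1 lay within the WT values (adjusted p = 0.214). Without that sample Ccnt1 passed as well, with a difference of 1.39 (adjusted p = 0.00704).

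Of 10 corepressors of MXD proteins and MNT, 0 passed limma's threshold in either direction, and 8 had a positive difference. At an unadjusted p under 0.05, 5 of the 10 were higher and 0 lower, beside 7.58% and 8.49% of all genes, and the unequal-variance test called 0. The list's median of 0.29 compares with -0.04 over all genes. The largest differences were those of Sap30, a subunit of the SIN3 complex, at 0.64 (limma adjusted p = 0.152), and the deacetylase Hdac2, at 0.48 (adjusted p = 0.0876). Hdac2 measured 9.01, 9.10 and 9.12 in KO samples and 8.64, 8.75 and 8.39 in WT samples, which did not overlap. The scaffolds Sin3a and Sin3b differed by -0.03 and -0.06.

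Of 9 genes of the MGA-containing Polycomb complex, 1 rose and 0 fell (median -0.01), beside 2.3% and 2.08% of all genes. At an unadjusted limma p under 0.05, 2 of the 9 were higher and 0 lower, beside 7.58% and 8.49% of all genes. The unequal-variance test called 0 of these 9. Tfdp1, the dimer partner of E2F proteins, measured 9.10, 9.29 and 9.35 in KO samples and 8.58, 8.56 and 8.78 in WT samples. Every KO value was above every WT value, and the log2 difference was 0.61 (SE 0.12, limma adjusted p = 0.0342), while its second probe set gave 0.63. E2f6, which links E2F sites to this complex, measured 5.31 ± 0.28 in KO and 5.43 ± 0.29 in WT (SD, n = 3 each). The subunit L3mbtl2 differed by -0.28 (adjusted p = 0.373). Without KO replicate 1, Yaf2, a subunit that binds RING1 proteins, also passed, at -0.66 (adjusted p = 0.0422).

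Of 16 genes that set the stability of MYC protein, 1 rose and 0 fell (median 0.24), beside 2.3% and 2.08% of all genes. At an unadjusted limma p under 0.05, 4 of the 16 were higher and 1 lower, beside 7.58% and 8.49% of all genes. The unequal-variance test called 0 of these 16. The list pools genes that stabilise MYC with genes that mark it for degradation, so its median gives no direction for MYC protein. Pim1, a kinase whose phosphorylation of MYC is known to stabilise it, measured 8.89, 9.95 and 9.98 in KO samples and 8.23, 7.74 and 8.43 in WT samples. The groups did not overlap, KO replicate 1 was the lowest of its group, and the log2 difference was 1.47 (SE 0.31, limma adjusted p = 0.0451). Fbxw7, the ubiquitin ligase subunit that marks MYC for degradation, measured 7.92, 8.91 and 9.03 in KO samples and 8.27, 9.04 and 8.98 in WT samples, a difference of -0.15 (adjusted p = 0.893). Usp28, the deubiquitinase that opposes FBXW7, and Cip2a, an inhibitor of the phosphatase PP2A, differed by 1.18 and 1.15 without passing (adjusted p = 0.117 and 0.0723). Without KO replicate 1, Usp28 passed at 1.58 (adjusted p = 0.00354) and Pim1 at 1.83. The calls of Kat2a, Tfdp1 and Pim1 were each lost without any of KO replicates 2 and 3 or WT replicates 1, 2 and 3, with adjusted p up to 0.152, 0.142 and 0.168, while all held without KO replicate 1.

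**Figure D3:**
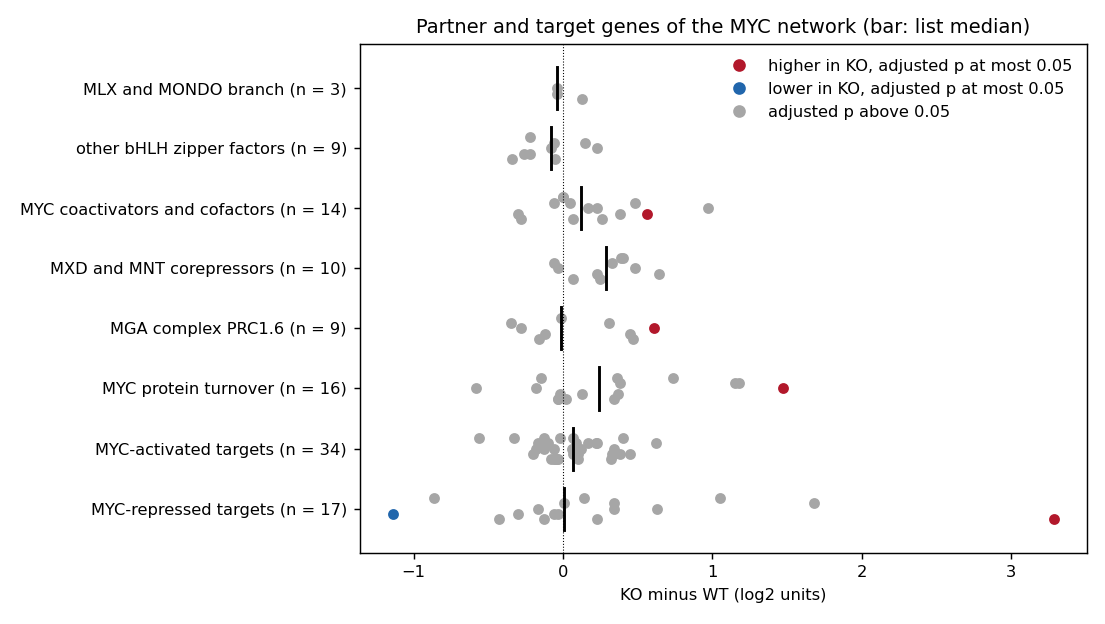
KO minus WT differences in log2 units (x axis) of 112 partner, regulator and target genes in 8 lists, with the number measured beside each name, a black bar at each list's median, red for genes higher and blue for genes lower in KO at an adjusted p of 0.05, and grey for the rest. The medians lie between -0.08 and 0.29, and the outlying red point at 3.29 is Ndrg1 among the MYC-repressed targets.

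Genes known to be activated by MYC did not pass limma's threshold in either direction. Of 34 measured, 0 rose and 0 fell, while 5 of the 34 were higher and 0 lower at an unadjusted p under 0.05, beside 7.58% and 8.49% of all genes, and 0 were called by the unequal-variance test. They had a median of 0.07 and differences from -0.56, for Srm, to 0.62, for Ccnd2. Ccnd2, a cyclin of the early cell cycle, measured 8.96, 9.30 and 9.40 in KO samples and 8.29, 8.80 and 8.71 in WT samples, which did not overlap (limma adjusted p = 0.119). Without KO replicate 1 it was the single gene of this list to pass, at 0.75 (adjusted p = 0.0456). Odc1, the rate-limiting enzyme of polyamine synthesis, measured 9.13, 10.05 and 10.10 in KO samples and 9.81, 10.32 and 10.12 in WT samples. Among the KO samples, replicate 1, with the highest Myc, was the highest for 13 and the lowest for 14 of the 34 genes. The nucleolar genes Ncl and Npm1 differed by 0.23 and 0.22 (adjusted p = 0.688 and 0.776). The list's median shift was 0.01, 0.04 and 0.08 in KO samples and -0.03, 0.11 and 0.02 in WT samples.

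Of 17 genes known to be repressed by MYC, 1 rose and 1 fell (median 0.01), beside 2.3% and 2.08% of all genes. At an unadjusted limma p under 0.05, 4 of the 17 were higher and 3 lower, beside 7.58% and 8.49% of all genes. The unequal-variance test called 0 of these 17. Ndrg1, a stress- and differentiation-induced gene, measured 9.43, 10.30 and 10.84 in KO samples and 6.18, 6.99 and 7.54 in WT samples. All KO values were above all WT values, and the log2 difference of 3.29 (SE 0.42, limma adjusted p = 0.006), or 9.79-fold, was larger than that of Myc and had the same sign. Itgal, the integrin chain CD11a, measured 7.93, 7.81 and 7.84 in KO samples and 9.03, 8.79 and 9.17 in WT samples, a difference of -1.14 (SE 0.13, adjusted p = 0.00311). The calls of Ndrg1 and Itgal held when each single array was left out. Without KO replicate 1, Gadd45b and Gadd45g, stress-inducible growth arrest genes, passed too, at 2.24 and 1.40 (adjusted p = 0.00553 and 0.00714), so 3 rose and 1 fell. The cell cycle inhibitors Cdkn1b and Cdkn2b differed by -0.03 and 0.01 (adjusted p = 0.958 and 0.984). Cdkn2b was dim, with means of 5.36 in KO and 5.35 in WT below the median of all genes, 5.69. Cdkn1a, another inhibitor of this list, was not measured.

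Other cell markers moved beside the Myc difference, and their part in it was not tested. Of 12 neutrophil granule genes, all had a positive difference and 0 passed limma's threshold, also at an unadjusted p under 0.05 and by the unequal-variance test, while Ngp passed without KO replicate 1 (1.00). Their mean level was 5.45 to 8.84 in KO samples and 4.82 to 5.79 in WT samples, 1 of the 12 lay below the 25th percentile of signal, and their median shift was 3.67, 0.38 and 0.06 in KO replicates 1, 2 and 3. Of 18 cell cycle genes, all had a positive difference and Mcm6 was the 1 that rose, beside 2.3% of all genes, or 5 without KO replicate 1. At an unadjusted p under 0.05, 9 of the 18 were higher and 0 lower, beside 7.58% and 8.49% of all genes. The unequal-variance test called 0 of them. Their mean levels were 6.74 to 8.10 in KO samples and 6.13 to 6.26 in WT samples. Their shifts were 1.76, 0.56 and 0.54 in KO replicates 1, 2 and 3. Myc itself was shifted by 3.69, 2.36 and 2.60 in these samples. Without KO replicate 1 the log2 difference of Myc was 2.48 (limma adjusted p = 0.000246), and that of Mycl was -0.66. In that fit 7.52% of all genes passed, and among the 10 members it was again 1 higher and 1 lower.

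Markers of further cell types were in part higher in all KO samples. Over all genes 2.3% passed as higher and 2.08% as lower, or 7.52% in either direction without KO replicate 1. The unequal-variance test called 0 genes in each of the lists below. Of 8 early progenitor genes 4 rose, Myb, Flt3, Sox4 and Erg, and 0 fell by limma's adjusted threshold. Meis1 had the 1 negative difference, -0.68, and was lower at an unadjusted p under 0.05. Mean levels of this list were 7.47 to 7.56 in KO samples and 6.63 to 6.72 in WT samples. Kit also passed without KO replicate 1 (1.93, limma adjusted p = 0.00444). Of 5 plasma cell genes 2 rose, Sdc1 and Prdm1, and 0 fell, with Xbp1 the 1 negative difference at -0.25. Mean levels of these genes were 8.41 to 9.39 in KO samples and 6.61 to 7.78 in WT samples. Irf4 also passed without KO replicate 1 (2.14, adjusted p = 0.00781). Prdm1, the plasma cell gene with the largest rise at 3.49, encodes BLIMP1, which is known to repress Myc in plasma cells. Of 6 B cell genes 2 rose, Cd79a and Fcer2a, and 0 fell, 2 of the 6 were below the 25th percentile of signal, and mean levels were 5.36 to 5.59 in KO samples and 4.87 to 5.06 in WT samples. Of 8 macrophage genes 0 rose and 1 fell, C1qb, while all 8 had a negative difference (median -0.9). At an unadjusted limma p under 0.05, 4 of the 8 were lower and 0 higher, beside 8.49% and 7.58% of all genes. Mean levels of these 8 were 4.60 to 4.79 in KO samples and 4.85 to 6.19 in WT samples, and 2 lay below the 25th percentile of signal. The median shift of this list was -0.84, -0.81 and -0.95 in KO samples and -0.61, 0.43 and 0.17 in WT samples. Of 12 immediate early and handling stress genes, a class that can hold transient Myc induction, 0 passed limma's threshold, 4 were higher at an unadjusted p under 0.05, beside 7.58% of all genes, and 0 were called by the unequal-variance test. With KO replicate 1 left out, 2 of the 12 passed as higher, Junb (0.67, adjusted p = 0.0346) and Atf3 (1.82, adjusted p = 0.0464). Their shifts were 0.11, 0.41 and 0.42 in KO samples and 0.05, 0.11 and -0.26 in WT samples. Of 7 conventional dendritic cell genes 3 rose, Itgax, Cd8a and Itgam, and 0 fell. Of these 7, 3 had a negative difference, the lowest being Sirpa at -0.5, and the list's median was 0.12. Of 6 T cell genes Cd5 rose and Cd8b1 fell, while 5 had a negative difference (median -0.19). The part of these cells in the differences of Myc and Mycl was not tested.

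**Figure D4:**
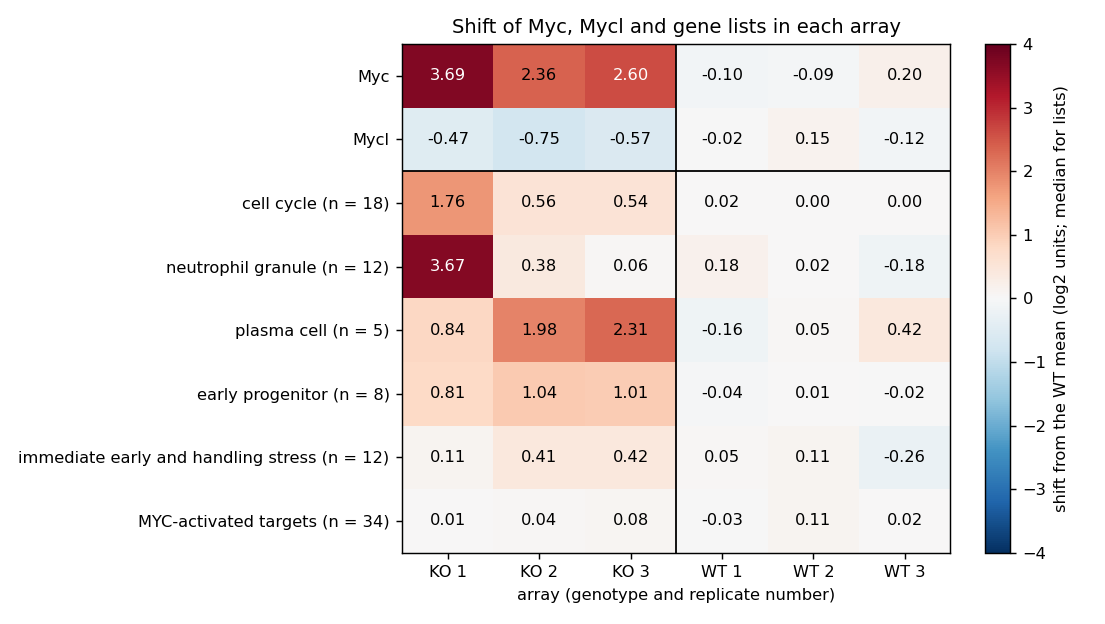
Shift from the WT mean in log2 units (colour and printed values) of Myc, Mycl and, below the line, the medians of 6 gene lists, in each of 3 KO and 3 WT arrays. KO replicate 1 carries the largest shifts of Myc, neutrophil granule genes and cell cycle genes. In KO replicates 1, 2 and 3 the shifts are 3.69, 2.36 and 2.60 for Myc and 3.67, 0.38 and 0.06 for neutrophil granule genes. They are 1.76, 0.56 and 0.54 for cell cycle genes, 0.84, 1.98 and 2.31 for plasma cell genes and 0.81, 1.04 and 1.01 for early progenitor genes.

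The genes whose profiles were closest to those of Myc and Mycl were found by the root-mean-square distance between the 6-array profiles, each centred on its own WT mean, among 16942 genes. It is a description over samples of 2 genotypes. Closest to Myc was Serpinb1a, an inhibitor of neutrophil serine proteases, at a distance of 0.274 log2 units. It measured 7.93, 6.05 and 6.84 in KO samples and 3.75, 3.75 and 4.65 in WT samples, with a WT mean below the 25th percentile of signal, so its difference of 2.89 may be understated. Next came Ddx58, which encodes the RNA sensor RIG-I, at 0.376, the endolysosomal channel gene Tpcn1 at 0.386, and the interferon-induced Ifit1 at 0.396. Ddx58 measured 8.82, 8.44 and 8.45 in KO samples, against 5.78, 5.55 and 5.31 in WT samples, so it lacked the wide spread of Myc among KO samples. Only 10 genes lay within 0.5 log2 units of Myc.

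Closest to Mycl was Alg5, an enzyme of protein glycosylation, at 0.062 log2 units. It measured 7.90, 7.78 and 7.79 in KO samples and 8.43, 8.61 and 8.24 in WT samples, a difference of -0.60 like that of Mycl. Cdhr5, a cadherin-related gene, followed at 0.066, then Ifngr2, the second chain of the interferon gamma receptor, at 0.075, and Gtf3c6, a subunit of an RNA polymerase III factor, at 0.092. Of these 4 genes, 3 passed the test and Gtf3c6 did not (limma adjusted p = 0.13). They were picked for nearness to Mycl in these same arrays, so this count is no separate result. Distances to Mycl are small because its own difference is small, and 11120 genes lay within 0.5 log2 units of it.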

How the data were processed

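Affymetrix arrays measured RNA from 3 KO and 3 WT splenic pDC samples. The deposited values are log2 levels per probe set, a scale read from the values. The authors' background correction, summarisation and normalization were not given in the sources used here. Of 34760 probe sets, 21640 had 1 symbol in the platform annotation, and the brightest by its mean over 6 arrays stood for a gene. Genotypes were compared with limma 3.58.1 (lmFit and eBayes, R 4.3.3) over 19937 genes, two-sided, without covariates or a filter on dim genes, adjusted by the Benjamini-Hochberg method with a threshold of 0.05. Differences are KO minus WT. Exact permutation tests used all 20 relabellings. On simulated data with planted differences, limma found 10% of those of 0.5 log2 units, 83.6% of those of 1 and 99.2% of those of 2. Of its calls there, 5.4% were false. Differences near 0.5 log2 units were thus mostly missed, so a gene that did not pass may still differ by that much. The number of arrays limits the precision. The members, gene lists and alternatives were chosen with earlier results of these data known. Genes named were the 10 members, Irf8, list genes past the threshold and the 4 profiles nearest to Myc and to Mycl, and other list genes were named after their values were seen. Alternatives were quantile normalization, centred medians, bright genes alone, the mean of probe sets, a variance trend, the replicate number as a block, array weights (statmod 1.5.0), left-out arrays and an unequal-variance test. Figures were drawn with matplotlib 3.10.9.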

Additional observations from a re-analysis of the deposited data

How the results depend on the processing

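The rise of Myc kept its direction and its call under every alternative but the unequal-variance test per gene, which called 0 members higher and 0 lower (adjusted p for Myc 0.342, over its alternatives 0.000246 to 0.342) and 2 genes higher and 2 lower overall. Without single arrays Myc differed by 2.48 to 3.15. The fall of Mycl kept its direction, but 0 members were called lower with a variance trend and robust estimation (adjusted p = 0.0732), with both arrays numbered 1 left out (0.0517) and with the replicate number as a block (0.0508). Without single arrays 0 to 1 members were called lower and 1 higher. Correlations of deviations for arrays of the same number were 0.379, 0.0968 and 0.252. For arrays of different numbers they ran from -0.306 to 0.200, the highest being KO replicate 2 with WT replicate 3. These values do not settle whether the numbers pair the samples, and the main fit did not pair them. Over all genes, main counts of 459 higher and 415 lower became 707 and 655 with the replicate block, 716 and 647 with array weights, 741 and 641 with both arrays numbered 1 left out, and 249 to 780 and 202 to 719 without single arrays. Differences of members that did not pass turned sign for Max, which ran from -0.25 to 0.06 without single arrays, and for Mga, which ran from -0.06 to 0.14 and was -0.01 with both arrays numbered 1 left out. The calls of Tfdp1 and Pim1 were also lost with centred array medians (adjusted p = 0.0652 and 0.0622), and those of Kat2a and Tfdp1 with the variance trend (0.074 and 0.0659). Kat2a also lost its call with both arrays numbered 1 left out (0.0531). The unequal-variance test called none of Kat2a, Tfdp1, Pim1, Ndrg1 and Itgal (adjusted p = 0.22 to 0.427). The causes were not tested. Mycn has no value among bright genes alone, since it lies below that limit.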

Other observations

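In the list of MYC-repressed genes, Gadd45b and Gadd45g had the largest positive differences after Ndrg1 and were named after their values were seen. Gadd45b measured 7.71, 9.10 and 9.67 in KO samples and 7.60, 6.60 and 7.23 in WT samples (limma adjusted p = 0.12). Gadd45g measured 5.68, 6.88 and 6.54 in KO samples and 5.56, 5.39 and 4.98 in WT samples (adjusted p = 0.119). KO replicate 1 was the lowest KO sample for these genes and for Ccnt1, Usp28, Pim1 and Ndrg1, and the highest for Myc, Cip2a, Plk1, Skp2 and Aurka. Cebpa, a myeloid transcription factor, measured 7.37, 7.69 and 8.05 in KO samples and 8.13, 9.07 and 8.49 in WT samples, a difference of -0.86 that did not pass (adjusted p = 0.142).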
